A study of Mus musculus with 21 samples.

Results

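The question addressed here was whether the gene expression response of activated CD4 T cells to transforming growth factor beta (TGFB) differed between reporter cells sorted for Foxp3 expression and cells of the Foxp3-/- genotype. It was measured as a difference of responses: hCD2-positive TGFB-induced reporter cells minus untreated reporter cells, less TGFB-experienced Foxp3-/- cells minus untreated Foxp3-/- cells. The samples were chosen by their titles, and 16 of the 21 arrays of the series entered this contrast. All cells came from cultured and activated splenocytes of Marilyn mice, which carry a transgenic T cell receptor for a male antigen. The reporter groups (Marilyn.Foxp3hCD2) report Foxp3 expression through human CD2 (hCD2) on the cell surface and comprised 5 arrays of untreated cells and 5 arrays of TGFB-induced cells sorted as CD4+hCD2+. The knockout groups (Marilyn.Foxp3-/-) comprised 3 arrays of untreated and 3 arrays of TGFB-experienced cells, and these cells and the untreated reporter cells were labelled CD4+CD2, with no source saying whether this means mouse or human CD2 or how these cells were sorted by it. The sources used here give no ages. The remaining 5 arrays, of TGFB-induced reporter cells sorted as CD4+hCD2-, entered the fit for the estimate of the spread and are given for comparison.

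Foxp3 is the lineage transcription factor of regulatory T cells, which restrain other immune cells. TGFB binds a receptor kinase complex that phosphorylates SMAD proteins, and in activated CD4 T cells it can induce Foxp3 and also acts on many genes without Foxp3. Foxp3 is known both to repress effector genes and to stabilise genes of the regulatory T cell programme.

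Only TGFB-induced reporter cells are labelled as sorted by hCD2, so that the sort and the genotype cannot be told apart in this contrast, and all knockout arrays belong to study number 2 of the labels, whereas reporter replicates 1 to 3 are study 1 and replicates 4 and 5 study 2. Lower quartiles of the arrays were 4.93 to 5.02 (log2) in reporter and 5.61 to 5.68 in knockout samples, and no source used here says whether the genotypes were normalized together. Levels are therefore compared between groups of the same genotype, and the genotypes are compared by their responses. Interquartile ranges ran from 2.01 to 3.14, and 7 of the 21 arrays were under 2.5 (in the reporter groups hCD2-positive replicate 3 and hCD2-negative replicates 1, 3 and 4, in the knockout groups replicate 1 with TGFB and replicates 1 and 2 without it). CD4 T cell identity genes were at high levels, and 0 of 11 lay under the lower quartile in any group, while 2 of 7 B cell, 2 of 9 dendritic cell and macrophage, 2 of 3 NK cell, 2 of 8 granulocyte and 2 of 4 erythroid markers lay under it in all groups. Limma called 0 of these markers for the difference described below, on either set of values. Over all 14860 genes it called 0 on the deposited values and 13 (0.0875%) after quantile normalization. With shares this low, 0 calls show nothing about the markers. The shares of B cell, dendritic cell and macrophage, and granulocyte markers under the lower quartile were near that of all clusters, which the quartile itself sets. They do not show that such cells were absent. Group means of Cst3 ran from 8.64 to 10.09 and of Cd68 from 7.58 to 8.47. Other dendritic cell and macrophage markers had group means of at most 6.33 (Ly86, untreated knockout cells). Replicates are labelled as biological, but no animal or culture is named for any of them, and p-values therefore cover only the spread among these arrays.

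Foxp3 was examined first, through a transcript cluster that its annotation shares with Flicr, a neighbouring non-coding RNA gene. Its values were 6.33, 6.38, 5.95, 6.31 and 6.54 (log2) on the untreated reporter arrays and 10.44, 10.34, 9.23, 11.64 and 11.68 on the hCD2-positive arrays. They were 7.17, 6.80 and 6.86 on the untreated knockout arrays and 8.26, 8.90 and 8.49 on the TGFB knockout arrays. The groups did not overlap within either genotype, and hCD2-positive replicate 3 was the lowest array of its group. The rise in hCD2-positive cells exceeded that in knockout cells by 2.76 ± 0.43 on the deposited values (log2, standard error of the limma fit; adjusted p = 0.110 over all 23332 clusters) and by 2.71 ± 0.34 after quantile normalization (adjusted p = 0.00655), where 5 clusters (0.0214%) were called. Because hCD2 marks Foxp3 expression, the high level in hCD2-positive cells follows from the sort. The knockout response of the cluster was 1.61 ± 0.34 (adjusted p = 0.0175), but no source used here says where the gene is disrupted or whether the probes cover that place. Within study 2 alone the difference was 3.45 after quantile normalization (limma adjusted p = 0.0118).

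On the deposited values, genes called in both genotypes moved in the same direction. Of the 1725 genes that limma called between hCD2-positive and untreated reporter cells (11.6% of 14860, with 289 or 1.94% higher and 1436 or 9.66% lower) and the 408 called between TGFB and untreated knockout cells (2.75%, with 133 or 0.895% higher and 275 or 1.85% lower), 345 were called in both, and all 345 did so, 88 higher and 257 lower. These were 20% of the reporter calls and 84.6% of the knockout calls. After quantile normalization 2638 genes (17.8%) were called in the reporter cells, 1247 (8.39%) higher and 1391 (9.36%) lower. In the knockout cells 1612 (10.8%) were called, 858 (5.77%) higher and 754 (5.07%) lower. Of these calls, 1241 were shared and 1239 had the same direction. Across the 14860 genes the responses correlated with r = 0.794 (Spearman 0.671), a description across genes, which are not independent replicates; the responses share no array. The count of knockout calls was 266 without knockout untreated replicate 3, and 238, 221 and 233 without knockout TGFB replicates 1, 2 and 3.

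For the difference of responses itself, limma called 0 genes on the deposited values (0%), and 375 genes (2.52%) had an unadjusted p under 0.05, of which 283 were lower and 92 higher in hCD2-positive cells. The median standard error of a difference was 0.284 (log2), against 0.174 for the reporter response and 0.225 for the knockout response. After quantile normalization 13 genes were called (0.0875% of those tested), 1 higher (0.00673%) and 12 lower (0.0808%) in hCD2-positive cells, and 815 had an unadjusted p under 0.05, of which 491 were lower and 324 higher. The 13 genes were Xcl1, Kit, Ggt5, Gzma, Cd160, Ncf1, Dzip1, Cd7, Cers6, Foxred2, Mboat1 and Ddc, with a negative difference, and Cybb, with a positive difference. All 13 kept the sign of their difference in each of the settings run, but the settings in which they passed the threshold on quantile-normalized values ranged from 6 of 26 for Mboat1, 7 for Ddc, 8 for Cd7 and 9 of 25 for Cybb to 21 of 26 for Xcl1 and 22 of 26 for Kit. On the deposited values they passed in few settings, at most in 6 of 30 for Xcl1, and Kit in 4 of 30. Their number rested on single arrays: 0 genes were called without knockout TGFB replicate 2 or 3, 2 without reporter untreated replicate 3 or hCD2-positive replicate 5, 4 without knockout untreated replicate 2, 5 without knockout untreated replicate 1 or hCD2-positive replicate 3, 7 without hCD2-positive replicate 4, and 8 without reporter untreated replicate 1 or 2 or knockout untreated replicate 3. Within study 2 alone, which holds 2 arrays of each reporter group and all knockout arrays, 0 were called by limma on either set of values and 712 had an unadjusted p under 0.05 after quantile normalization. On that scale 0 genes were called when the 7 narrow arrays were left out, and 648 had an unadjusted p under 0.05. In these bulk samples, fewer cells of a type and less RNA per cell cannot be told apart.

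**Figure D1:**
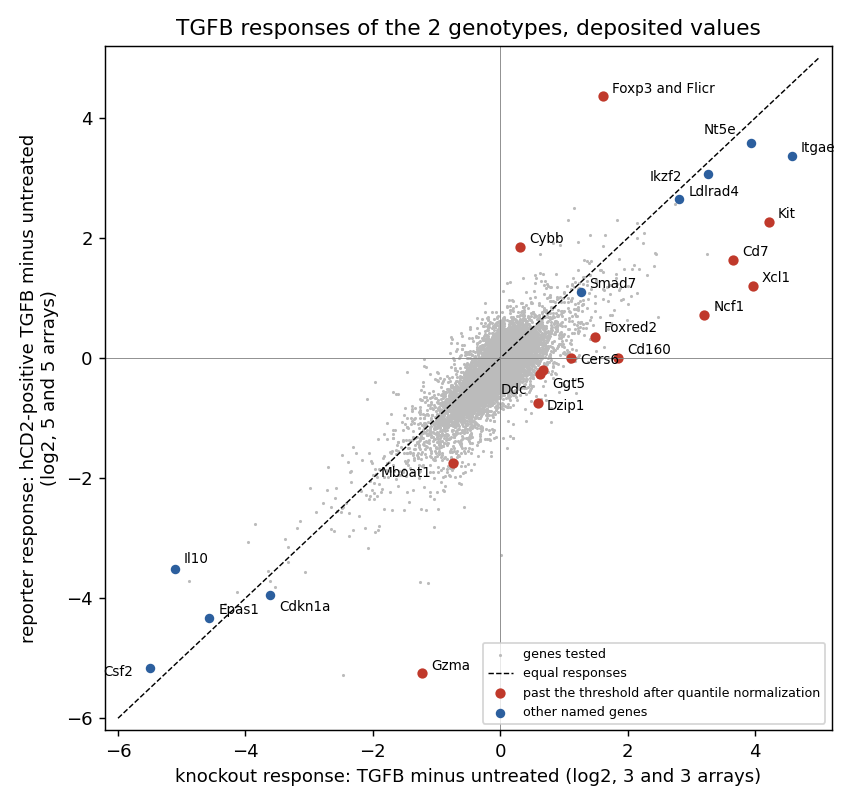
Log2 response to TGFB of each of the 14860 genes on the deposited values, in knockout cells (x axis, 3 and 3 arrays) and in reporter hCD2-positive cells (y axis, 5 and 5 arrays). Red points are the Foxp3 and Flicr cluster and the 13 genes called after quantile normalization, blue points are other named genes, and points on the dashed line have equal responses.

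Xcl1, Kit, Gzma and Cybb had the lowest p on the deposited values among the 13 genes, and their promoters are shown so that the regulatory sequence of the genes described next can be read beside their values. Each sequence covers 250 bases before to 50 bases after the start of the gene in RefSeq's GRCm38.p6 annotation: Xcl1 at chr1:164935473-164935772 (minus strand), Kit at chr5:75574737-75575036 (plus strand), Gzma at chr13:113100932-113101231 (minus strand) and Cybb at chrX:9469275-9469574 (minus strand). Capitals mark a match on either strand to CAGAC, a motif that SMAD proteins bind, or to TGTTTAC, a motif of forkhead factors such as Foxp3; the motifs do not overlap.
Xcl1: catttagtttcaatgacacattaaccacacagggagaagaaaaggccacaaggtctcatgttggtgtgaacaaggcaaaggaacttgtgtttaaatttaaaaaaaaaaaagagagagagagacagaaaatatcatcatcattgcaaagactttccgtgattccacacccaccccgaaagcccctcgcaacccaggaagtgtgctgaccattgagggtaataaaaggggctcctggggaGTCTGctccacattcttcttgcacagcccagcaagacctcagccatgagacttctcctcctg
Kit: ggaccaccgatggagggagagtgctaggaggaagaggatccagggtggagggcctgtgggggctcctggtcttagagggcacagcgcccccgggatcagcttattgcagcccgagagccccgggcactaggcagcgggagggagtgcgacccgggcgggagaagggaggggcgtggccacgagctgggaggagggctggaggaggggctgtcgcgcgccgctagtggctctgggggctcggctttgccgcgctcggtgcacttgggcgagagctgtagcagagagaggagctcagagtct
Gzma: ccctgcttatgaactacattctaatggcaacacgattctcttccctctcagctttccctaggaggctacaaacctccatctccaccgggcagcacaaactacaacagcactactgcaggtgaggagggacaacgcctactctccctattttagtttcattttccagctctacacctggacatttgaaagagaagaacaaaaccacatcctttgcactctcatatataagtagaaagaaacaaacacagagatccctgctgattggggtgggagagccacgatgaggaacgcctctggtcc
Cybb: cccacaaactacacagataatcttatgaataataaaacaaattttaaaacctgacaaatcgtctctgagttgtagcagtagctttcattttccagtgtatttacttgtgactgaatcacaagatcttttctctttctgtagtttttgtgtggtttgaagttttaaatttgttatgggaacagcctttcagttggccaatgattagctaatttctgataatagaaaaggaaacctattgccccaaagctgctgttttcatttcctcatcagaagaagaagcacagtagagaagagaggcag
The SMAD motif stood in 3 of the 11 called genes with a promoter in the table (27.3%; Xcl1, Mboat1 and Cers6) and in 49.7% of all 27025 promoters of this length. The forkhead motif stood in 0 of the 11 and in 3.55% of all promoters. A match or its absence describes the letters of this window and no binding.

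Xcl1 and Kit rose in both genotypes, and more in knockout cells after quantile normalization. Xcl1 encodes a chemokine that attracts dendritic cells bearing the receptor XCR1. Its values were 6.2, 6.48, 6.38, 6.91 and 6.86 on the untreated reporter arrays and 7.32, 7.84, 6.81, 8.67 and 8.22 on the hCD2-positive arrays. They were 7.20, 7.35 and 7.33 on the untreated knockout arrays and 10.94, 11.60 and 11.22 on the TGFB knockout arrays. The reporter groups overlapped through hCD2-positive replicate 3, and the knockout groups lay far apart. Xcl1 rose by 1.21 ± 0.29 in hCD2-positive cells (adjusted p = 0.009) and by 3.96 ± 0.37 in knockout cells (adjusted p = 4.19e-06), a difference of -2.75 ± 0.47 on the deposited values (adjusted p = 0.113) and of -2.81 ± 0.40 after quantile normalization (adjusted p = 0.0112), or 7.01-fold. Within study 2 the difference was -2.47 (limma adjusted p = 0.0522).

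Kit encodes the receptor for stem cell factor. Its values were 5.64, 5.58, 6.21, 5.61 and 6.61 in untreated reporter cells and 8.58, 8.26, 7.78, 8.38 and 7.98 in hCD2-positive cells. In knockout cells they were 6.30, 6.16 and 6.59 without TGFB and 10.24, 10.71 and 10.73 with it. No array overlapped between the groups of either genotype. The rise was 2.27 ± 0.21 in hCD2-positive and 4.21 ± 0.27 in knockout cells, with a difference of -1.94 ± 0.34 on the deposited values (adjusted p = 0.113) and of -2.17 ± 0.31 after quantile normalization (adjusted p = 0.0112). In hCD2-negative cells, which share the untreated arrays with the hCD2-positive fraction, Kit rose by 4.43 (adjusted p = 2.08e-10; limma called 18.9% of genes in that comparison).

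Among surface receptors of cytotoxic lymphocytes, Cd160 and Cd7 rose in knockout cells and differed between the responses after quantile normalization. Cd160 encodes an immunoglobulin-family receptor of NK and T cells. Its values were 5.67, 5.66, 5.67, 6.58 and 5.62 in untreated reporter cells and 6.04, 5.68, 5.70, 5.89 and 5.92 in hCD2-positive cells, which overlapped. In knockout cells they were 6.16, 6.42 and 7.10 without TGFB and 7.83, 8.61 and 8.79 with it, without overlap. The difference of responses was -2.06 ± 0.34 after quantile normalization (adjusted p = 0.0275) and -1.84 ± 0.40 on the deposited values (adjusted p = 0.367). Cd7, which encodes another immunoglobulin-family receptor of T and NK cells, rose in both genotypes, by 1.63 ± 0.31 in hCD2-positive cells (adjusted p = 0.0018) and by 3.65 ± 0.40 in knockout cells (adjusted p = 2.96e-05). The TGFB knockout arrays of Cd7 were at 10.26, 11.18 and 11.47, above 7.13 to 7.47 on the untreated ones, and the hCD2-positive arrays ran from 7.27 to 9.13 beside 6.28 to 7.52 on the untreated reporter arrays. Its difference was -2.07 ± 0.37 after quantile normalization (adjusted p = 0.0344) and -2.02 ± 0.51 on the deposited values (adjusted p = 0.874). The hCD2-negative reporter arrays were at 6.25, 7.38, 6.43, 7.15 and 6.44 for Cd160 and at 8.39, 8.98, 7.97, 9.80 and 9.51 for Cd7. Higher values with TGFB were therefore not particular to knockout cells.

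Gzma, which encodes granzyme A, a protease of cytotoxic granules, fell in hCD2-positive cells. Untreated reporter arrays were at 10.49, 11.16, 11.07, 11.49 and 9.56 and hCD2-positive arrays at 6.2, 6.37, 4.73, 5.14 and 5.08. Untreated knockout arrays were at 12.07, 12.12 and 12.71 and TGFB knockout arrays at 10.63, 10.88 and 11.70. Neither genotype's groups overlapped, but the gap was far wider in the reporter cells. Gzma changed by -5.25 ± 0.43 in hCD2-positive cells (adjusted p = 4.72e-07) and by -1.23 ± 0.55 in knockout cells (adjusted p = 0.390), a difference of -4.02 ± 0.70 on the deposited values (adjusted p = 0.113) and of -3.91 ± 0.63 after quantile normalization (adjusted p = 0.0243), or 15-fold. In hCD2-negative cells it fell by 2.17 on the log2 scale (adjusted p = 0.00171). The mean of Gzma was higher in the hCD2-negative than in the hCD2-positive fraction, 8.59 ± 1.07 against 5.50 ± 0.73 (SD, n = 5 each; limma adjusted p = 0.00273 for their difference, where 0.155% of genes were called).

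A pair of subunits of the phagocyte NADPH oxidase, which makes superoxide, differed in opposite directions. Cybb encodes the catalytic subunit. Its values were 5.06, 5.04, 4.80, 4.70 and 4.66 in untreated reporter cells, a mean under the lower quartile of those arrays, and 6.95, 7.26, 6.12, 6.39 and 6.83 in hCD2-positive cells. Knockout values were 5.84, 5.81 and 5.60 without TGFB and 5.98, 6.01 and 6.19 with it. The groups did not overlap in either genotype. The hCD2-negative reporter arrays were at 5.69, 4.98, 5.40, 5.23 and 5.68. They overlapped the untreated reporter arrays and lay below every hCD2-positive array, so the larger rise was also missing from reporter cells of the other sort fraction. Cybb rose by 1.86 ± 0.18 in hCD2-positive cells (adjusted p = 2.58e-06) and differed by 0.31 ± 0.24 in knockout cells (adjusted p = 0.789). The difference was 1.55 ± 0.30 on the deposited values (adjusted p = 0.224) and 1.46 ± 0.26 after quantile normalization (adjusted p = 0.0344). Ncf1 encodes a cytosolic activator of the same enzyme. Its TGFB knockout arrays were at 10.12, 10.59 and 10.68, above untreated knockout arrays at 7.08, 7 and 7.70, while hCD2-positive arrays from 7.58 to 9.12 overlapped untreated reporter arrays from 6.98 to 8.77. The difference of responses for Ncf1 was -2.48 ± 0.42 after quantile normalization (adjusted p = 0.0275) and -2.48 ± 0.54 on the deposited values (adjusted p = 0.367).

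**Figure D2:**
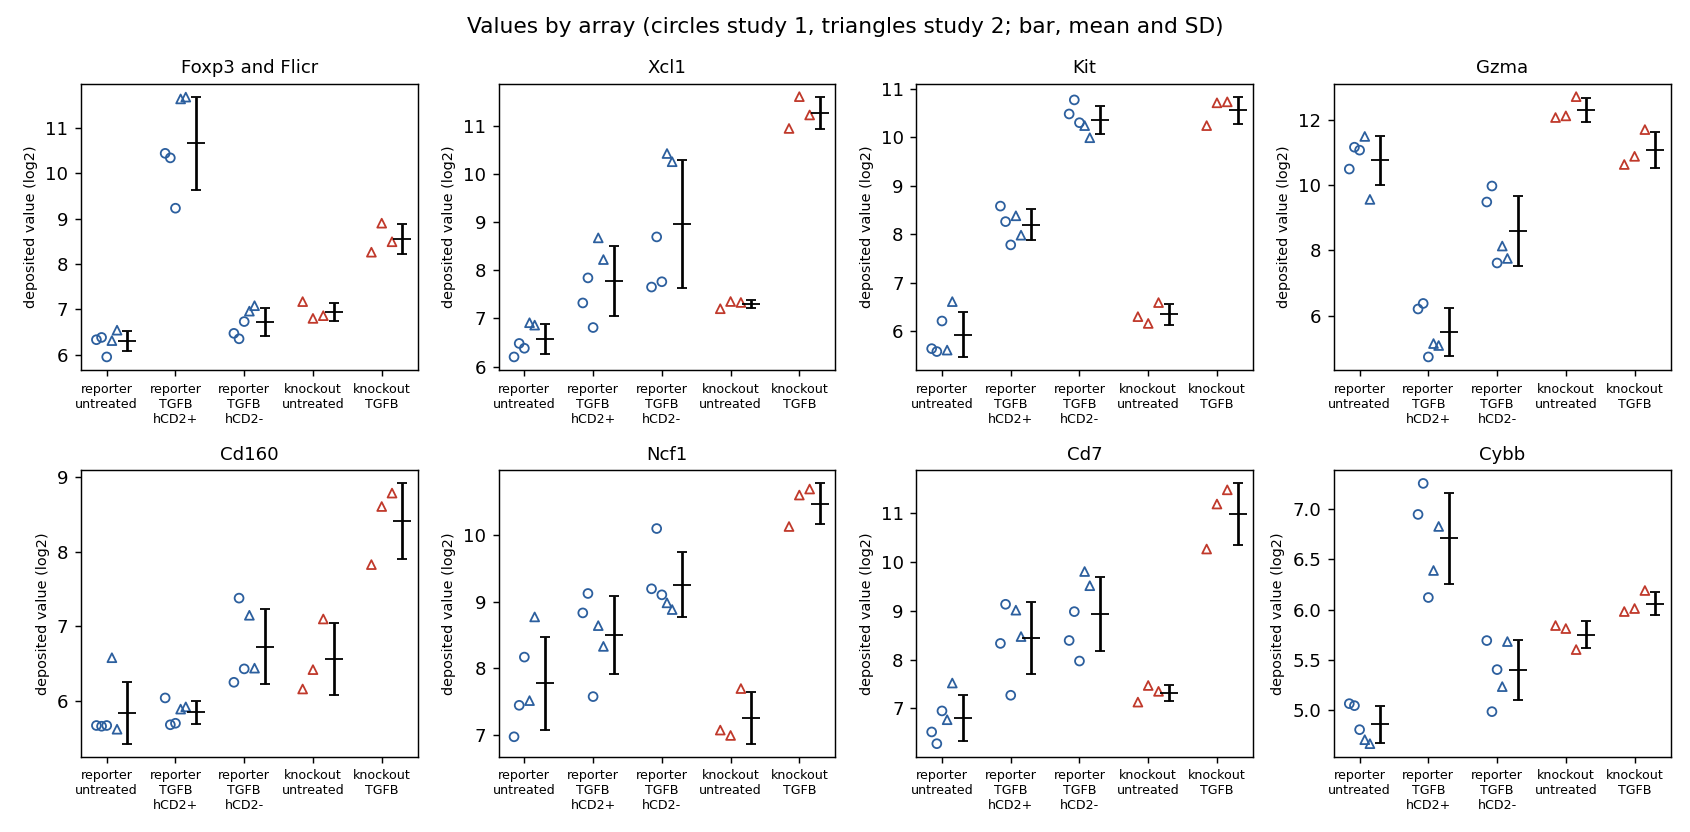
Deposited log2 value of the Foxp3 and Flicr cluster and of 7 genes on each of the 21 arrays (y axes), by group (x axes), with circles for study 1, triangles for study 2 and bars for the mean and SD. The hCD2-positive arrays of Kit, at 7.78 to 8.58, lie between the untreated and the hCD2-negative reporter arrays, and those of Gzma lie below every untreated reporter array.

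The other 6 genes called after quantile normalization had smaller differences. Foxred2, which encodes a flavoprotein of protein degradation at the endoplasmic reticulum, rose by 1.76 ± 0.18 in knockout cells and by 0.51 ± 0.14 in hCD2-positive cells on that scale, a difference of -1.25 ± 0.22 (adjusted p = 0.0344). Cers6, which encodes a ceramide synthase, rose by 1.32 ± 0.15 in knockout cells and differed by 0.26 ± 0.11 in hCD2-positive cells (adjusted p = 0.141), a difference of -1.07 ± 0.19 (adjusted p = 0.0344). Ggt5, whose enzyme converts leukotriene C4, had a difference of -0.91 ± 0.14 (adjusted p = 0.0243), with TGFB knockout arrays at 6.98, 7.26 and 7.23 above untreated ones at 6.6, 6.49 and 6.38. These genes rose in knockout cells, and Ddc, which encodes aromatic amino acid decarboxylase, did so as well, with a difference of -0.95 ± 0.18 (adjusted p = 0.0444). Dzip1, which encodes a zinc finger protein of the primary cilium, moved in opposite directions, by -0.54 ± 0.13 in hCD2-positive cells (adjusted p = 0.00722) and by 0.74 ± 0.17 in knockout cells (adjusted p = 0.00661), with a difference of -1.28 ± 0.22 (adjusted p = 0.0275). Mboat1, which encodes a lysophospholipid acyltransferase, fell in both genotypes, by 1.41 ± 0.09 and 0.64 ± 0.11, with a difference of -0.76 ± 0.14 (adjusted p = 0.0444). On the deposited values these 6 differences lay between -1.34 and -0.87, and the adjusted p of Ggt5 was 0.249, of Dzip1 0.367 and of Ddc 0.414. Mboat1, Foxred2 and Cers6 had a higher p there than every other called gene, Cd7 included. After quantile normalization, hCD2-negative arrays of Foxred2 (7.55 to 8.29) and Cers6 (7.88 to 8.44) lay above untreated reporter arrays (6.69 to 7.12 and 7.14 to 7.58). Those of Ggt5, Ddc and Dzip1 overlapped the untreated ones.

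Other genes of cytotoxic lymphocytes did not pass the threshold for the difference. Ccl5, a chemokine gene of effector T cells, was at 7.49, 7.5 and 7.95 in untreated and at 10.45, 11.39 and 11.32 in TGFB knockout cells, which did not overlap. In reporter cells it was at 7.27, 6.95, 6.85, 7.96 and 7.37 without TGFB and at 8, 9.08, 6.98, 8.12 and 8.57 in the hCD2-positive fraction, which overlapped. The hCD2-negative arrays were at 9.25, 10.26, 7.76, 8.82 and 8.57 and overlapped the untreated ones only through replicate 3. Higher values of Ccl5 with TGFB were therefore not particular to knockout cells. Ccl5 rose by 3.41 ± 0.52 in knockout cells (adjusted p = 0.000782), and the difference was -2.54 ± 0.66 (adjusted p = 0.961; -2.50 and adjusted p = 0.0513 after quantile normalization). Gzmb, the granzyme B gene, fell by 5.27 ± 0.57 in hCD2-positive cells and changed by -2.47 ± 0.73 in knockout cells (adjusted p = 0.0904), with a difference of -2.80 (95% interval -4.75 to -0.85, adjusted p = 0.998). Klrd1, an NK receptor gene, had a difference of -2.23 (-3.91 to -0.55, adjusted p = 0.998), and Ctsw, a protease gene of cytotoxic cells, of -1.34 (-2.52 to -0.17, adjusted p = 0.998). Limma called 0% of all genes for the difference on the deposited values and 0.0875% after quantile normalization. Of 12 measured cytotoxic granule genes, 0 were called for the difference on the deposited values and 1, Gzma, after quantile normalization. Their median difference was -0.709 and -0.601 on those scales, beside -0.063 and 0.016 over all genes, and 5 fell in hCD2-positive cells against 1 in knockout cells (3 after quantile normalization), where Ctsw rose. Over all genes 9.66% were called lower in hCD2-positive and 1.85% in knockout cells (9.36% and 5.07% after quantile normalization).

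Of the CD8 T cell markers, Cd8a rose in knockout cells and Cd8b1 did not pass the test there, and neither passed for the difference. Cd8a arrays were at 7.6, 7.43, 7.08, 6.84 and 6.12 in hCD2-positive cells and at 6.11, 6.57, 6.69, 6.46 and 5.81 in untreated reporter cells, which overlapped. In knockout cells they were at 8.72, 9.55 and 9.67 with TGFB and at 6.68, 6.6 and 7.25 without it, and this rise was 2.47 ± 0.35 (adjusted p = 0.000386). The difference of responses for Cd8a was -1.78 ± 0.45 (adjusted p = 0.874; -1.92 and adjusted p = 0.101 after quantile normalization), and hCD2-negative cells rose by 2.44. Cd8b1, which encodes the other chain of the CD8 co-receptor, changed by -0.20 in knockout cells (adjusted p = 0.952) and by -0.95 in hCD2-positive cells (adjusted p = 0.00416). The summed level of both markers on the linear scale was 1052 to 1362 in untreated and 1259 to 1770 in TGFB knockout cells, and 669.2 to 1193 in untreated and 387.8 to 709.9 in hCD2-positive reporter cells. Cd8b1, with group means of 10.06, 9.86, 9.73 and 8.78 in that order, made up most of this sum. The mean log2 value of both markers was 8.25 to 8.745 in untreated and 9.215 to 9.785 in TGFB knockout cells, without overlap. In reporter cells it was 7.535 to 8.285 and 7.51 to 8.305, which overlapped. Of 3 NK cell markers, Ncr1 and Klre1 lay under the lower quartile in all 5 groups. Fcer1g, at means of 5.02 in untreated and 5.14 in hCD2-positive reporter cells and of 6.62 in untreated and 6.26 in TGFB knockout cells, lay above it in all but hCD2-negative cells. On the deposited values 0 of the 3 were called for either response, beside 11.6% of all genes in hCD2-positive and 2.75% in knockout cells. With 3 markers, 0 calls do not show that NK cells were absent or unchanged. Whether CD8 T cells had a part in the differences of Xcl1, Cd160, Cd7 or Gzma was not tested.

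Several direct targets of TGFB signalling passed the test in both genotypes. Smad7, the inhibitory SMAD that TGFB induces, rose by 1.10 ± 0.25 in hCD2-positive and by 1.26 ± 0.32 in knockout cells, with a difference of -0.16 (95% interval -1.01 to 0.70; -0.46 to 0.42 after quantile normalization). Ldlrad4, which encodes an inhibitor of SMAD activation, rose by 2.65 ± 0.25 and 2.81 ± 0.33, with a difference of -0.16 (-1.03 to 0.71). Itgae (CD103, an integrin chain) rose by 3.37 ± 0.38 and 4.57 ± 0.49. Its arrays went from 5.75, 6.05, 6.52, 5.48 and 7.95 in untreated reporter cells to 10.04, 10, 8.74, 10.22 and 9.59 in hCD2-positive cells, and from 6.66, 6.27 and 7.29 to 10.95, 11.32 and 11.67 in knockout cells, without overlap in either genotype. The difference of responses was -1.21 (-2.52 to 0.11, adjusted p = 0.998). Id2, a repressed target that encodes an inhibitor of helix-loop-helix factors, fell by 2.83 ± 0.20 and by 2.13 ± 0.26, and Id3, a relative, rose by 0.99 ± 0.28 and by 1.92 ± 0.36. Intervals of this width do not show that the responses were equal.

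A receptor and a ubiquitin ligase had the lowest p of the TGFB list for the difference after quantile normalization, and neither passed the threshold. Tgfbr3, which encodes betaglycan, a co-receptor for TGFB, fell by 0.85 ± 0.16 in hCD2-positive cells (adjusted p = 0.00154) and changed by 0.38 ± 0.21 in knockout cells (adjusted p = 0.549), a difference of -1.24 ± 0.26 (adjusted p = 0.341; -1.01 and adjusted p = 0.0533 after quantile normalization). Smurf2, which encodes a ligase that marks SMADs and the receptor for degradation, had a difference of -1.19 ± 0.42 (adjusted p = 0.998; -1.03 and 0.0725 after quantile normalization). Of 27 measured genes of the list, 7 rose and 3 fell in hCD2-positive cells and 4 rose and 1 fell in knockout cells. After quantile normalization 13 rose and 3 fell in hCD2-positive and 11 rose and 3 fell in knockout cells. Among all genes 1.94% were called higher and 9.66% lower in hCD2-positive cells, and 0.895% and 1.85% in knockout cells. With quantile normalization these shares were 8.39% and 9.36%, and 5.77% and 5.07%. The difference was called for 0 of 27 on either set of values, with medians of -0.156 and -0.011. Among all genes 0% and 0.0875% were called for it, with medians of -0.063 and 0.016. Smad3, a signal-carrying SMAD, had a difference of 0.41 (-0.26 to 1.07; 0.65, adjusted p = 0.394, after quantile normalization).

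Genes of the regulatory T cell programme were divided. Ikzf2 (Helios) rose by 3.06 ± 0.27 in hCD2-positive and by 3.26 ± 0.35 in knockout cells, a difference of -0.19 (-1.13 to 0.74). Nt5e (CD73, which makes adenosine) rose by 3.59 ± 0.36 and 3.93 ± 0.47, a difference of -0.34 (-1.58 to 0.89). Both therefore rose in cells labelled Foxp3-/-. Il2ra, the high-affinity IL-2 receptor chain gene, fell by 1.10 ± 0.20 in hCD2-positive cells and by 1.49 ± 0.26 in knockout cells, a difference of 0.39 (-0.29 to 1.07). Nrp1 (neuropilin, a receptor of regulatory T cells) rose by 2.04 ± 0.40 in hCD2-positive cells (adjusted p = 0.00219) and differed by 0.89 ± 0.51 in knockout cells (adjusted p = 0.614), and the difference was 1.15 (-0.21 to 2.51, adjusted p = 0.998).

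Differences of other members of this programme were above 0 without passing the threshold. Tnfrsf4 (OX40) fell by 1.48 ± 0.24 there and by 2.31 ± 0.31 in knockout cells, a difference of 0.83 (0.00 to 1.65, adjusted p = 0.998), and Cd81, a tetraspanin gene, fell by 1.69 ± 0.38 in knockout cells and changed by -0.56 ± 0.29 in hCD2-positive cells (adjusted p = 0.238), a difference of 1.12 (0.11 to 2.13, adjusted p = 0.998). Over the 25 measured members of the regulatory T cell list, which does not hold the Foxp3 cluster, 5 rose and 10 fell in hCD2-positive cells and 2 rose and 11 fell in knockout cells. Limma called 1.94% of all genes higher and 9.66% lower in the former, and 0.895% and 1.85% in the latter. After quantile normalization 6 members rose and 10 fell in hCD2-positive cells, and 3 rose and 14 fell in knockout cells. The shares of all genes were then 8.39% and 9.36%, and 5.77% and 5.07%. The difference was above 0 for 20 of 25, with a median of 0.285 (0.396 after quantile normalization), and 0 were called on either set of values, 3 and 7 having an unadjusted p under 0.05. Over all genes 5804 of 14860 lay above 0 on the deposited values and 7883 after quantile normalization. On those scales 0% and 0.0875% of all genes were called for the difference, and 2.52% and 5.48% had an unadjusted p under 0.05.

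Targets of IL-2 signalling through STAT5 were not called for the difference. Socs2, a feedback inhibitor gene, was at 10.78, 10.78, 10.12, 10.51 and 10.55 in hCD2-positive cells and at 11.68, 10.78, 11.43, 11.49 and 10.36 in untreated reporter cells. In knockout cells it was at 11.03, 11.59 and 11.79 without TGFB and fell to 8.83, 10.39 and 10.38 with it, and in hCD2-negative cells it lay between 7.59 and 8.38. The change was -0.60 ± 0.30 in hCD2-positive cells (adjusted p = 0.224) and -1.60 ± 0.39 in knockout cells (adjusted p = 0.0321), a difference of 1.00 (-0.04 to 2.05, adjusted p = 0.998). Pim1, a survival kinase gene, had a difference of 1.23 (0.16 to 2.31, adjusted p = 0.998; 1.34 and 0.253 after quantile normalization). Cish, another feedback inhibitor, had a difference of -0.30 (-1.10 to 0.49). Of the 15 measured genes of this list, 9 fell in hCD2-positive and 5 in knockout cells (9 and 8 after quantile normalization, where 3 and 2 rose), and the median difference was -0.037. The shares of all genes called lower were 9.66% and 1.85% (9.36% and 5.07% after quantile normalization).

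Genes known as repressed by Foxp3 had mostly negative differences that did not pass the threshold. Igfbp4, which encodes a binding protein of insulin-like growth factors, fell by 0.92 ± 0.20 in hCD2-positive cells (adjusted p = 0.00573) and changed by 0.48 ± 0.26 in knockout cells (adjusted p = 0.572), a difference of -1.39 ± 0.33 (adjusted p = 0.674), while it fell by 2.02 in hCD2-negative cells. Pde3b, a phosphodiesterase gene that Foxp3 represses, had a difference of -0.76 (-1.50 to -0.01, adjusted p = 0.998), Cd40lg, the ligand gene for CD40 on B cells, of -0.85 (-1.61 to -0.08, adjusted p = 0.998), and Themis, a regulator of T cell receptor signalling, of -0.74 (-1.49 to 0.00, adjusted p = 0.998). The level of Il2 lay under the lower quartile in all groups. Of 17 measured genes, 11 fell and 2 rose in hCD2-positive cells and 2 fell and 1 rose in knockout cells (10 fell and 3 rose, and 4 fell and 3 rose, after quantile normalization). Of all genes 9.66% were called lower in hCD2-positive and 1.85% in knockout cells (9.36% and 5.07% after quantile normalization). Differences lay above 0 for 3 of 17, with a median of -0.395 (5 of 17 and -0.408 after quantile normalization). Over all genes 5804 of 14860 lay above 0, with a median of -0.063 (7883 and 0.016 after quantile normalization).

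Cytokine genes of Th2 cells fell in both genotypes. Il13 fell by 3.06 ± 0.31 in hCD2-positive and by 3.96 ± 0.39 in knockout cells, a difference of 0.90 (-0.15 to 1.95), and Il4 fell by 2.42 ± 0.24 and 2.79 ± 0.31, a difference of 0.36 (-0.46 to 1.19). Gata3, the Th2 regulator, fell by 1.35 ± 0.22 and 1.91 ± 0.28. Of 9 measured Th2 genes 8 fell in hCD2-positive cells and 7 in knockout cells (8 and 9 after quantile normalization). For comparison, 9.66% of all genes were called lower in hCD2-positive cells and 1.85% in knockout cells (9.36% and 5.07% after quantile normalization). The difference was above 0 for 8 of 9 on either set of values, with a median of 0.567 (0.802 after quantile normalization). Differences of all genes lay above 0 for 5804 of 14860, with a median of -0.063 (7883 and 0.016 after quantile normalization). It was called for 0 of the 9 on either set, beside 0% and 0.0875% of all genes. Il10, an immunosuppressive cytokine gene, fell by 3.51 ± 0.54 and 5.11 ± 0.70, but its mean with TGFB lay under the lower quartile in both genotypes, so that the sizes are uncertain. Il9 changed by -0.02 ± 0.25 in hCD2-positive cells and by -1.20 ± 0.32 in knockout cells (adjusted p = 0.0517), a difference of 1.19 (0.33 to 2.04, adjusted p = 0.998). On untreated reporter replicates 1 to 3 Il9 was already low, at 5.45, 4.50 and 5.10 beside lower quartiles of 5, 5.02 and 4.98. A fall with TGFB could hardly be seen from those levels. Csf2 (GM-CSF) fell by 5.17 ± 0.60 and 5.50 ± 0.77, and its hCD2-positive mean of 4.49 also lay under the lower quartile.

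Of 13 measured Th1 genes 7 fell and 1 rose in hCD2-positive cells, and 2 fell and 2 rose in knockout cells. After quantile normalization 7 fell and 3 rose in hCD2-positive cells, and 3 fell and 2 rose in knockout cells. For these responses, calls over all genes were 9.66% lower and 1.94% higher in hCD2-positive cells, and 1.85% and 0.895% in knockout cells. With quantile normalization they were 9.36% and 8.39%, and 5.07% and 5.77%. The difference was called for 0 of the 13 on either set of values, beside 0% and 0.0875% of all genes. Il12rb2, an IL-12 receptor chain gene, fell by 3.74 ± 0.56 in hCD2-positive cells (adjusted p = 0.000236) and changed by -1.13 ± 0.72 in knockout cells (adjusted p = 0.686), a difference of -2.61 (-4.54 to -0.68, adjusted p = 0.998). Tbx21 (T-bet), the Th1 regulator, fell by 1.31 ± 0.20 in hCD2-positive cells and changed by -0.72 ± 0.26 in knockout cells (adjusted p = 0.211), a difference of -0.59 (-1.29 to 0.10). Ifng had a difference of 0.18 (-0.76 to 1.12).

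**Figure D3:**
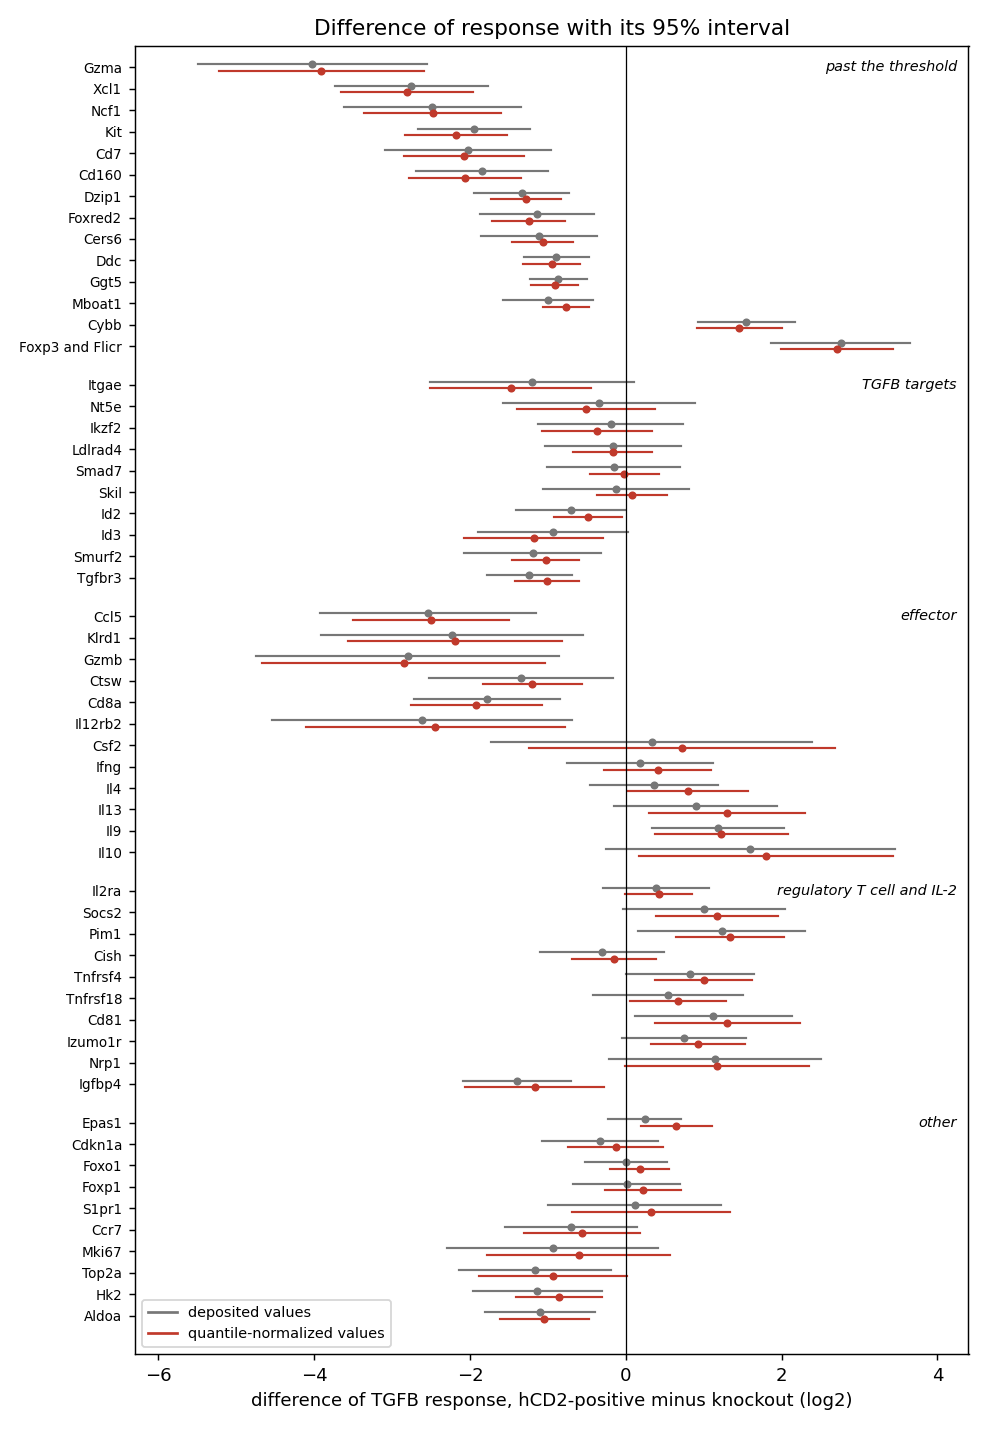
Difference of TGFB response, hCD2-positive minus knockout (x axis, log2), with its 95% interval for the Foxp3 and Flicr cluster, the 13 genes called after quantile normalization and other named genes (y axis), in grey on the deposited and in red on the quantile-normalized values. The intervals of Xcl1, Gzma and Kit lie below 0 and those of Cybb and of the Foxp3 and Flicr cluster above it on both sets of values, while that of Smad7 spans 0.

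Epas1 and Cdkn1a fell in both genotypes. Epas1, which encodes a hypoxia-inducible factor, fell by 4.32 ± 0.14 in hCD2-positive cells (adjusted p = 5.17e-13) and by 4.57 ± 0.18 in knockout cells (adjusted p = 1.74e-11), a difference of 0.25 (-0.22 to 0.72; 0.19 to 1.11 after quantile normalization). Cdkn1a (p21, a cell cycle inhibitor) fell by 3.94 ± 0.22 and 3.61 ± 0.28, a difference of -0.33 (-1.08 to 0.41). Limma called 1.94% of all genes higher in hCD2-positive cells and 0.895% in knockout cells (8.39% and 5.77% after quantile normalization). Of 12 measured genes of the naive and homing list, 6 rose and 1 fell in hCD2-positive cells and 4 rose and 1 fell in knockout cells (8 and 1, and 7 and 1, after quantile normalization). Among those that rose in both were Foxo1, by 0.82 ± 0.15 and 0.81 ± 0.20, with an interval of the difference from -0.52 to 0.53, Foxp1, by 1.24 ± 0.20 and 1.23 ± 0.26 (-0.68 to 0.70), S1pr1, by 2.26 ± 0.32 and 2.14 ± 0.42 (-1 to 1.23), and the chemokine receptor gene Ccr7, by 1.74 ± 0.25 and 2.45 ± 0.32 (-1.55 to 0.14).

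On the cell cycle, glycolysis, cholesterol synthesis and amino acid stress lists, most measured genes fell in hCD2-positive cells on the deposited values and fewer passed the test in knockout cells. The difference was called for 0 of them on either set of values, beside 0% and 0.0875% of all genes. Of 32 measured cell cycle genes 25 fell in hCD2-positive and 4 in knockout cells (28 and 9 after quantile normalization). Over all genes, the shares called lower were 9.66% and 1.85% (9.36% and 5.07% after quantile normalization). Top2a, the topoisomerase gene of dividing cells, fell by 1.79 ± 0.28 in hCD2-positive cells and changed by -0.62 ± 0.37 in knockout cells (adjusted p = 0.625), a difference of -1.17 (-2.14 to -0.19, adjusted p = 0.998). In hCD2-negative cells Top2a fell by 3.17 on the log2 scale. The median difference of the list was -0.532 on the deposited values and -0.296 after quantile normalization.

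Of 12 measured glycolysis genes 8 fell in hCD2-positive cells and 1 in knockout cells (8 and 3 after quantile normalization), and 0 of 12 differences were above 0 on the deposited values, with a median of -0.880 (-0.652 and 1 of 12 after quantile normalization). For this list and the next ones, the background over all genes called lower was 9.66% and 1.85% (9.36% and 5.07% after quantile normalization). Differences lay above 0 for 5804 of all 14860 genes, with a median of -0.063 (7883 and 0.016 after quantile normalization). Hk2, the hexokinase gene, fell by 2.24 ± 0.24 in hCD2-positive cells and changed by -1.10 ± 0.31 in knockout cells (adjusted p = 0.0733), a difference of -1.13 (-1.96 to -0.31, adjusted p = 0.998). Aldoa, the aldolase gene, fell by 1.35 ± 0.21 and changed by -0.25 ± 0.27 (adjusted p = 0.919), a difference of -1.10 (-1.81 to -0.39, adjusted p = 0.998). Slc16a3, a lactate transporter gene, had a difference of -1.29 (-2.37 to -0.22, adjusted p = 0.998). Of 15 cholesterol synthesis genes 8 fell in hCD2-positive and 2 in knockout cells (7 and 5 after quantile normalization), among them Lss, the lanosterol synthase gene, by 2.20 ± 0.19 and 1.37 ± 0.24. Of 18 genes of the amino acid stress and unfolded protein list 14 and 6 fell on the deposited values and 14 and 13 after quantile normalization, with a median difference of -0.167, and Asns, the asparagine synthetase gene, fell by 2.96 ± 0.30 and 2.37 ± 0.39. More arrays gave the reporter response a smaller standard error, so that these counts of calls do not compare the sizes of the responses.

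**Figure D4:**
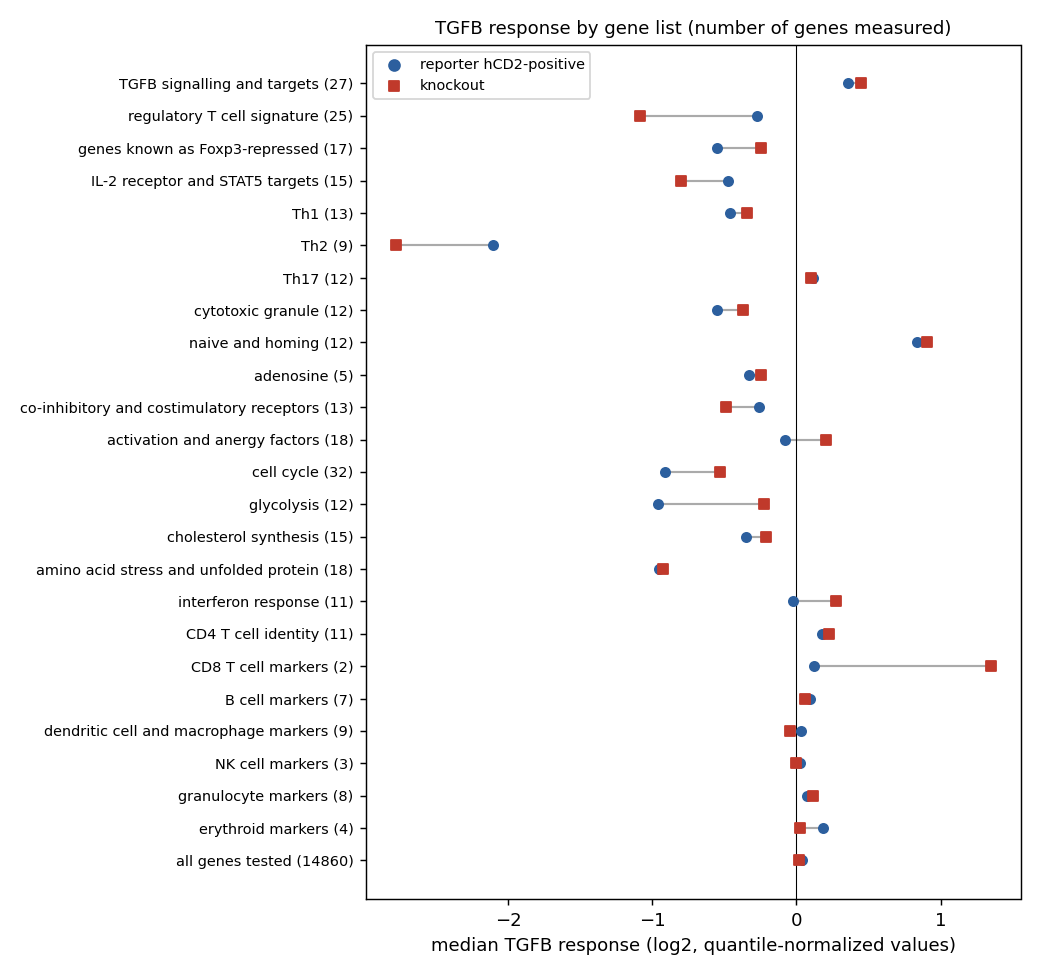
Median log2 response to TGFB over the measured genes of each list (x axis, quantile-normalized values; the number of genes stands beside each name), with circles for reporter hCD2-positive and squares for knockout cells. The glycolysis medians, -0.959 and -0.222, lie apart, and those of the amino acid stress and unfolded protein list, -0.956 and -0.925, nearly meet.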

How the data were processed

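RNA of frozen pellets of sorted cells was labelled with biotin and hybridised to Affymetrix mouse exon arrays, 1 array per sample, per the labels' protocols. The submitters' processing notes name RMA, Affymetrix Expression Console 1.2 and the build mm8. With these the authors deposited log2 values, 1 for each transcript cluster on each array. Arrays give no read depth, and their number limits the precision.

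Of 23332 clusters, 14996 carried 1 gene symbol in the array's annotation, 1019 several and 7317 none. A current gene table matched 14941 of them and changed 0 symbols. Of several clusters of a gene (135 genes), the brightest on average was used, which left 14860 genes. The Foxp3 and Flicr cluster was tested among all clusters.

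Limma 3.58.1 in R 4.3.3 was fitted to all 21 arrays, with a mean for each of 5 groups and a term for study number. Tests were moderated and 2-sided, with Benjamini-Hochberg adjustment over all genes and calls at an adjusted p under 0.05. The deposited values were the main setting, and the same fit after limma's quantile normalization over the 14860 genes stands beside it, since array spread differed. Values with ± are standard errors of the fit unless given as SD. Simulated data with known changes were used to test the script. The samples, the 24 gene lists and the naming rule were chosen with earlier results of these data known. The rule allowed the Foxp3 cluster, a panel of T cell genes, up to 12 called genes in each direction, from each list the members with the lowest p (up to 4), and members of short lists. Ctla4, Lrrc32, Ikzf4 and Tcf7 were not analysed here. Promoter sequences came from RefSeq's GRCm38.p6 annotation, and Python 3.11.15 was used to search them.

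Alternatives were a model without study number, a replicate block, the 16 arrays or study 2 alone, other scalings, a trended variance prior, array weights, all clusters, omission of the dimmest genes and of each array in turn. Omission of the 7 arrays of narrow range, the interquartile range as a covariate and quantile normalization over all clusters were added after seeing the data.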

Additional observations from a re-analysis of the deposited data

Results flagged for a closer look

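Of 158 groups of 5 arrays tested over the named genes, 6 (3.8%) had an array far from the others, and chance alone marks about 1 in 20 groups. In untreated reporter cells, Cd160 was at 6.58 on replicate 4 beside 5.62 to 5.67 on the others. The remaining 5 were all hCD2-positive replicate 3, the array with the narrowest interquartile range (2.01). On it Foxred2 was at 6.43 beside 7.27 to 7.44, Mboat1 at 6.23 beside 6.79 to 6.88, Cd8b1 at 7.98 beside 8.90 to 9.07, Smad3 at 7.36 beside 8.43 to 8.68 and Cd4 at 9.27 beside 10.34 to 10.66. Without this array 5 genes were called for the difference after quantile normalization, all of them among the 13.

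By limma's test of the difference itself, responses of hCD2-positive reporter and knockout cells differed past the threshold after quantile normalization for the following genes. The difference was positive for Cybb (1.46). It was negative for Gzma (-3.91), Xcl1 (-2.81), Ncf1 (-2.48), Kit (-2.17), Cd7 (-2.07), Cd160 (-2.06), Dzip1 (-1.28), Foxred2 (-1.25), Cers6 (-1.07), Ddc (-0.95), Ggt5 (-0.91) and Mboat1 (-0.76). The Foxp3 and Flicr cluster (2.71), tested among all clusters, also passed, and its high level in hCD2-positive cells follows from the sort. On the deposited values 0 genes passed. The sort and the genotype cannot be told apart in this contrast.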

How the results depend on the processing

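On the deposited values limma called 0 genes for the difference, and 1 with the 16 arrays alone, 68 with array weights, 3 with centring on the array median, 2 with centring and scaling to the same interquartile range, 9 with quantile normalization within each genotype, 13 with it over all arrays and 1 with the interquartile range as a covariate. In the weighted fit single arrays counted most, with weights of 4.08 for knockout TGFB replicate 3 and 3.89 for hCD2-positive replicate 5. On quantile-normalized values, 13 genes were called, against 1 without study number, 0 in study 2 alone (712 at an unadjusted p under 0.05), 25 with array weights, 0 without the 7 arrays of narrow range (648 at an unadjusted p under 0.05) and 5 of 23332 when all clusters were tested. Omission of single arrays gave 0 to 1 calls on the deposited values and 0 to 14 on quantile-normalized values, 1218 to 1989 for the reporter response and 221 to 383 for the knockout response. Quantile normalization gave 2638 and 1612 calls for these responses. Reporter samples of the same replicate number correlated at 0.147 to 0.512 in their deviations from the group means, and those of different numbers at -0.543 to 0.598. Once study means were removed, these ranges were -0.109 to 0.004 and -0.366 to 0.366, where the few arrays of a study constrain the deviations. Knockout samples of the same number correlated at -0.182 to 0.58 and of different numbers at -0.675 to 0.461. These ranges overlap, so the check cannot decide whether the numbers pair the samples. The replicate block gave 0 calls on the deposited values and 15 on quantile-normalized values (9 among the 13), with 1982 for the reporter and 516 for the knockout response. Of 4337 recomputed values of 79 named genes, 0 called values reversed, 170 lost and 77 gained a call, and 73 uncalled values changed sign. With 3 knockout arrays per group, differences near the median standard error of 0.284 (log2) could not be detected, and much larger ones could be missed. In the main fit on the deposited values even the difference of Gzma did not pass, and the lowest adjusted p was 0.113. The 0 calls there do not show that the differences were small. Small levels under an array's lower quartile have uncertain fold changes.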
